A study of Mus musculus with 6 samples.

Results

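The junction genes of the blood-testis barrier examined here are 9 of the 53700 gene identifiers in the count tables: the claudin genes Cldn3, Cldn5 and Cldn11, the 4-span membrane protein genes Ocln (occludin) and Marveld2 (tricellulin), F11r (junctional adhesion molecule A), Tjp1 (the scaffold ZO-1), Cdh2 (N-cadherin) and Gja1 (connexin 43). They were chosen by name as parts of this junction, at a time when earlier results of these data were known, and all 9 passed the filter on low counts that left 21902 genes for testing. Levels were compared in whole testes at postnatal day 45 between 3 mice labelled wild type for Msl3 (WT) and 3 labelled conditional knockouts of a floxed Msl3 allele (cKO), with strain Msl3em1Forni/C57BL/6J given for all 6. A floxed allele is cut out only where a recombinase acts. The labels used here name neither the recombinase line nor the cells in which it acts. Msl3 encodes a subunit of a histone acetyltransferase complex.

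The blood-testis barrier is formed by neighbouring Sertoli cells, the nurse cells of the seminiferous tubule, near the base of the epithelium. Its tight junctions seal the space above from the blood. Claudins and occludin form the strands, junctional adhesion molecules and tricellulin sit beside them or at corners where cells meet, and ZO-1 ties them to actin. Basal ectoplasmic specialisations with N-cadherin and gap junctions of connexin 43 lie in the same belt, which opens and reseals as preleptotene spermatocytes pass.

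The libraries held 56991431 to 73766444 reads assigned to genes on the strand used. Msl3, the targeted gene, was at 16.9 ± 1.68 CPM (SD, n = 3) in WT and 15.6 ± 0.649 CPM (SD, n = 3) in cKO libraries (log2 fold change -0.12, edgeR adjusted p = 0.551), so its count did not separate the groups and they are named by label only. CPM are reads per 1000000 on library sizes scaled by the trimmed mean of M values. The libraries labelled cKO 2 and cKO 3 stood apart from the other 4 in genes with long transcripts, which is set beside Tjp1 and Cdh2 below. The tissue label was checked on fixed marker lists. Spermatid markers were led by Prm1 and Tnp2, at 5733 and 5561 CPM per kb of exon. Of 9 markers of the excurrent duct epithelium, 8 had a mean under 0.2 CPM, Lcn8 had no read in any library, and Pax2, at 2.85 CPM, was the exception.

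Levels of different genes can be set side by side only per length of exon. Cldn11 was the highest member, at 55.5 ± 5.48 CPM per kb in WT and 58.1 ± 7.10 in cKO libraries (SD, n = 3 each). Tjp1 followed at 12.7 ± 0.351 and 15.7 ± 2.35 CPM per kb. Then came F11r, Cdh2, Gja1, Cldn3 and Cldn5, with means over all 6 libraries of 9.15, 7.90, 7.33, 5.91 and 4.99 CPM per kb, and in this run of 5 genes each overlapped the next in its range over libraries. Ocln, at 2.42 CPM per kb, lay below every value of those genes, and Marveld2, at 0.396, below every value of Ocln. Lengths were those of all annotated exons together, so a gene with many alternative exons, such as Gja1, is set lower than one with a single transcript.

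In 3 gene families a member was the highest gene. Of 23 annotated claudin genes, 5 had a mean of at least 1 CPM, and Cldn11, Cldn3 and Cldn5 were the 3 highest per length. Cldn11 alone made up 75.8% of the summed claudin level per length. Cldn13 and Cldn12 came next, at 3.16 and 2.46 CPM per kb. Gja1 was the highest of 20 connexin genes, with 32.5% of their sum, ahead of Gja6 (5.35 CPM per kb) and Gjd3 (3.03). Cdh2 was the highest of 23 cadherin genes, with 39.7% of their sum, ahead of Cdh23 (2.51) and Cdh5 (2.26), the cadherin of endothelium.

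**Figure D1:**
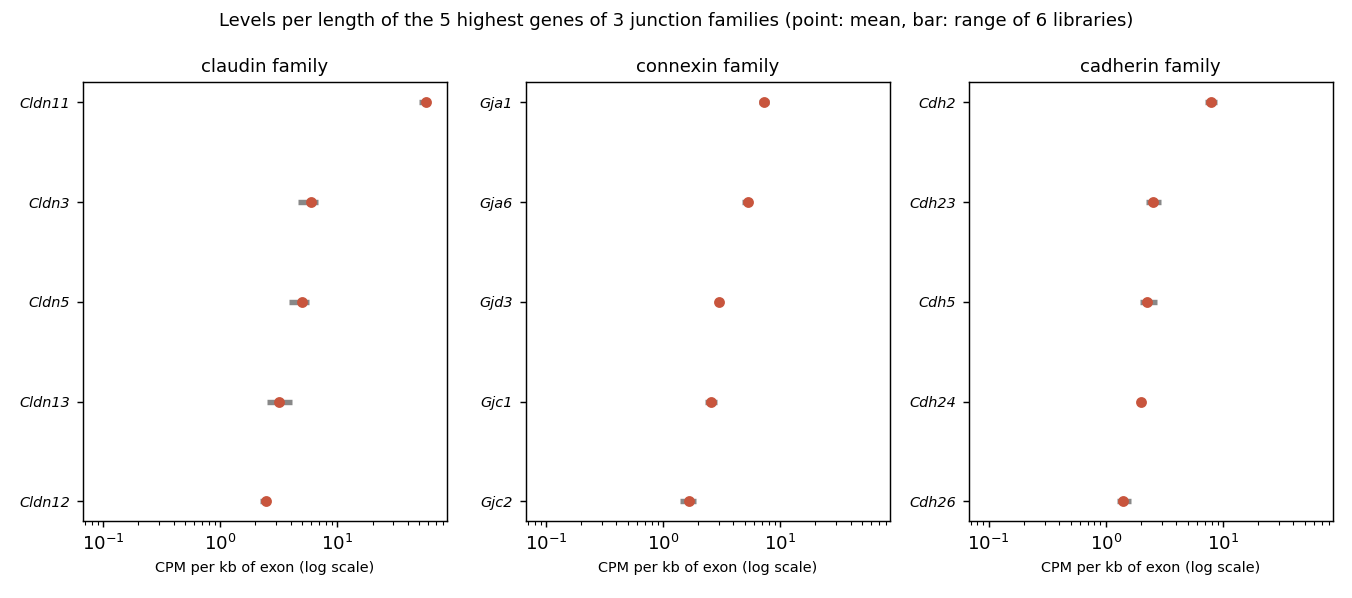
Level per length (CPM per kb of exon, log scale) of the 5 highest genes of the claudin, connexin and cadherin families; points are means and bars the range of the 6 libraries. Cldn11 stands alone at 56.8 CPM per kb, while Gja1 and Cdh2 head their families at 7.33 and 7.90.

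The sequences upstream of 4 members are shown: the most abundant member (Cldn11), the one with mostly antisense reads (Cldn3), the gap junction gene (Gja1) and the one whose groups did not overlap (Tjp1). Each is the 250 bases before the RefSeq start site in build GRCm38.p6, read 5′ to 3′ on the gene's strand, and none overlaps an annotated exon of GENCODE M21. For Tjp1 the RefSeq site lies inside the annotated gene, which begins further upstream, at 65527781 on the minus strand. Capitals mark the GC box GGGCGG or its reverse complement CCGCCC.
Cldn11, chr3:31149670-31149919, plus strand: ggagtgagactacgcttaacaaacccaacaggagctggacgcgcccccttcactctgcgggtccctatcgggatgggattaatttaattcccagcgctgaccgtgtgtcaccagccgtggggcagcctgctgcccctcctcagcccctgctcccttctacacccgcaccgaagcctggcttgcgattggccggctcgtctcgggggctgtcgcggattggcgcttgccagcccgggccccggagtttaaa
Cldn3, chr5:134985964-134986213, plus strand: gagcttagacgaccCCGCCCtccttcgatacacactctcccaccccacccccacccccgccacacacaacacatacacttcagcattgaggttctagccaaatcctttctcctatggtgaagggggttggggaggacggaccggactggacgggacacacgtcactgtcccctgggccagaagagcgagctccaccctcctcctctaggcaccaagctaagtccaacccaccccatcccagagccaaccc
Gja1, chr10:56377050-56377299, plus strand: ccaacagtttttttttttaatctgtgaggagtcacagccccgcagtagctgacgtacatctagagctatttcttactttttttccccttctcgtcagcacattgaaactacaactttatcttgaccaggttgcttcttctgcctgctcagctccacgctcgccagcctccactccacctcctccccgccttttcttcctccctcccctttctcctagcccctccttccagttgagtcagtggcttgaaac
Tjp1, chr7:65371245-65371494, minus strand: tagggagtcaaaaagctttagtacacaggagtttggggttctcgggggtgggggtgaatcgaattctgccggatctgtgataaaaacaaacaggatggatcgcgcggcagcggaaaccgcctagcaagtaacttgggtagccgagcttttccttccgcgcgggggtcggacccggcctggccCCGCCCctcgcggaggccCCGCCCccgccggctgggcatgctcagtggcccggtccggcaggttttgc
The Tjp1 stretch held 2 GC boxes and that of Cldn3 held 1. Those of Cldn11 and Gja1 held 0, and those of Cldn5, F11r, Ocln and Marveld2, not shown, held 1 each. A GC box occurs in 32.7% of the 32851 RefSeq upstream stretches of this length, searched on both strands. The stretches held 22 CG dinucleotides in Tjp1, 19 in Cldn11, 9 in Cldn3 and 6 in Gja1, where the median of all stretches is 6. The TATA box TATAAA (12.4% of all stretches) and the androgen receptor half-site AGAACA (16.1%) were not found in any of the 4 on either strand. Of the stretches not shown, that of Marveld2 held 1 TATAAA and 2 AGAACA, and those of Cldn5, F11r and Ocln held 0. RefSeq upstream stretches were found for 8 of the 9 members.

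Cldn11 (ENSMUSG00000037625, GRCm38 chromosome 3, 31149920 to 31164324) encodes the claudin without which Sertoli cells form no tight junction strands in mice. It was at 115, 96.1 and 99.8 CPM in WT 1, 2 and 3 and at 117, 93.3 and 116 CPM in cKO 1, 2 and 3. WT 2, WT 3 and cKO 2 were the low libraries, and the groups overlapped over nearly their whole range. The fold of cKO over WT was 1.05 with a 95% interval of 0.904 to 1.21 (edgeR adjusted p = 0.805).

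Cldn3 (ENSMUSG00000070473, GRCm38 chromosome 5, 134986214 to 134987472) encodes a claudin that in Sertoli cells depends on androgen and appears in newly formed junctions. It was at 8.35, 5.76 and 7.29 CPM in the WT and 8.43, 6.17 and 8.63 CPM in the cKO libraries. WT 2 and cKO 2 were the low ones, and their spread exceeded the difference between the groups. The fold was 1.09 with a 95% interval of 0.864 to 1.37 (edgeR adjusted p = 0.762). Without WT 2 the log2 fold change turned from 0.12 to -0.012.

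Cldn3 was the member whose reads lay mostly on the other strand. Over its exons 2782 reads in all 6 libraries came from the strand of the Cldn3 transcript and 15970, or 85.2%, from the opposite one. In the other 8 members the opposite share was at most 0.948%, the value of Tjp1. The Cldn3 reads of the transcript strand were 491, 374 and 453 in WT and 615, 345 and 504 in cKO libraries, against 2474, 2414 and 2680 and 3418, 2438 and 2546 on the other strand. Each of the 6 libraries thus had several opposite-strand reads for each Cldn3 read, 5.74 in the pooled count. The antisense gene Wbscr25 (minus strand, 134987433 to 135001350) meets Cldn3 tail to tail, with 40 exon bases in common. It had 93521 reads on its own strand. The annotated overlap is thus a small part of the 1259 exon bases of Cldn3, and how far Wbscr25 transcripts run into Cldn3 was not analysed here. Such a strand balance is not rare: of 15046 genes with at least 1000 reads on both strands together, 771 (5.12%) had over 80% of them on the other strand. Strand-specific counts separate the pair, whereas an unstranded count of Cldn3 would be mostly antisense reads (2842, 2670 and 2969 in WT, 3843, 2630 and 2884 in cKO libraries). Wbscr25 had a log2 fold change of 0.13 (SE 0.080, edgeR adjusted p = 0.495).

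**Figure D2:**
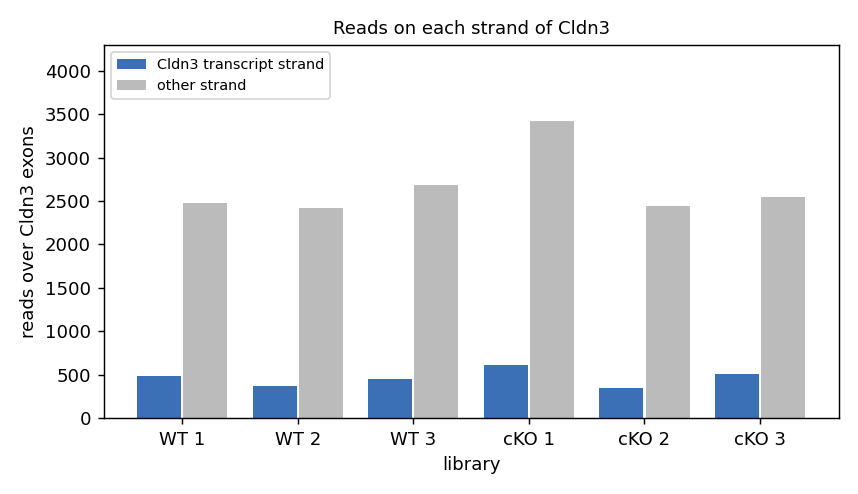
Reads over the exons of Cldn3 in each library, on the strand of its transcript (blue) and on the other strand (grey). In all 6 libraries the other strand holds at least 2414 reads and the transcript strand 345 to 615.

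Cldn5 (ENSMUSG00000041378, GRCm38 chromosome 16, 18776847 to 18778262) encodes a claudin of endothelium that is also found in Sertoli cells and in spermatocytes at the barrier. It was at 8.20, 5.46 and 6.85 CPM in the WT and 7.43, 6.92 and 7.50 CPM in the cKO libraries. All cKO values lay inside the WT range. The fold was 1.07 with a 95% interval of 0.873 to 1.305 (edgeR adjusted p = 0.799), and without WT 2 the log2 fold change turned from 0.093 to -0.047. Endothelial markers were detected too: the 15 genes of that list summed to 81.1 to 85.1 CPM in WT and 84.9 to 97.2 CPM in cKO libraries, led per length by Sox17 (3.25 CPM per kb) and Cdh5. Cldn5 was above both per length. In whole tissue its endothelial and tubular parts cannot be told apart, and for every member fewer cells of a type and less RNA per cell cannot be told apart either.

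Ocln and Marveld2 belong to the same family of tight junction proteins and lie on the same strand of GRCm38 chromosome 13, 43238 bases apart, with 2 annotated genes between them. Ocln (ENSMUSG00000021638, 100496507 to 100552718) was at 11.04, 9.43 and 9.69 CPM in WT and 10.3, 10.1 and 10.8 CPM in cKO libraries, and all cKO values lay inside the WT range. Its fold was 1.03 with a 95% interval of 0.900 to 1.18 (edgeR adjusted p = 0.865). Marveld2 (ENSMUSG00000021636, 100595957 to 100616971) encodes the protein that seals the corners where 3 cells meet. It had 115, 69 and 90 reads in WT and 96, 70 and 58 in cKO libraries, which is 1.96, 1.06 and 1.45 CPM against 1.32, 1.25 and 0.993 CPM. Its libraries overlapped, with the highest and the second highest value in WT and the lowest in cKO 3. The fold of 0.803 had the widest interval of the 9 members, 0.576 to 1.12 (edgeR adjusted p = 0.540). The WT libraries had a coefficient of variation of 30.1%, and without WT 1 the log2 fold change went from -0.32 to -0.073.

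F11r (ENSMUSG00000038235, GRCm38 chromosome 1, 171437535 to 171464603), an immunoglobulin-type adhesion molecule found in Sertoli cells and in sperm, was at 24.2, 25.8 and 23.3 CPM in WT and 24.2, 22.3 and 26.3 CPM in cKO libraries. The lowest and the highest library were both cKO. The fold was 0.993 with a 95% interval of 0.878 to 1.12 (edgeR adjusted p = 0.968). Its relatives Jam2 and Jam3 had log2 fold changes of 0.00087 (edgeR adjusted p = 0.997) and -0.066 (edgeR adjusted p = 0.682), with groups that did not overlap for Jam3.

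Tjp1 (ENSMUSG00000030516, GRCm38 chromosome 7, 65296165 to 65527781) encodes ZO-1, which binds the tails of claudins and occludin and also binds connexin 43. It was at 102, 98.6 and 96.4 CPM in WT and 103, 139 and 125 CPM in cKO libraries. It was the only member whose groups did not overlap. The gap was narrow, since cKO 1 was within 1 CPM of WT 1, while cKO 2 and cKO 3 lay well above the rest. The log2 fold change was 0.30 (SE 0.096), a fold of 1.24 with a 95% interval of 1.07 to 1.43, and did not pass over all genes (edgeR adjusted p = 0.288; DESeq2 adjusted p = 0.0835). With library sizes left unscaled its groups overlapped.

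Cdh2 (ENSMUSG00000024304, chromosome 18) encodes the cadherin that joins Sertoli cells to each other and to germ cells. It was at 65.6, 56.3 and 56.5 CPM in WT and 65.4, 72.3 and 66.2 CPM in cKO libraries. The groups overlapped through WT 1 and cKO 1 alone. The log2 fold change was 0.19 (SE 0.079), a fold of 1.14 with a 95% interval of 1.02 to 1.29 (edgeR adjusted p = 0.321).

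Gja1 (ENSMUSG00000050953, GRCm38 chromosome 10, 56377330 to 56402513) encodes connexin 43, the main gap junction protein between Sertoli cells and between these and germ cells. It was at 78.1, 74.2 and 68.0 CPM in WT and 81.2, 68.2 and 81.7 CPM in cKO libraries. The groups overlapped, with WT 3 and cKO 2 low. The fold was 1.05 with a 95% interval of 0.923 to 1.19 (edgeR adjusted p = 0.754).

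**Figure D3:**
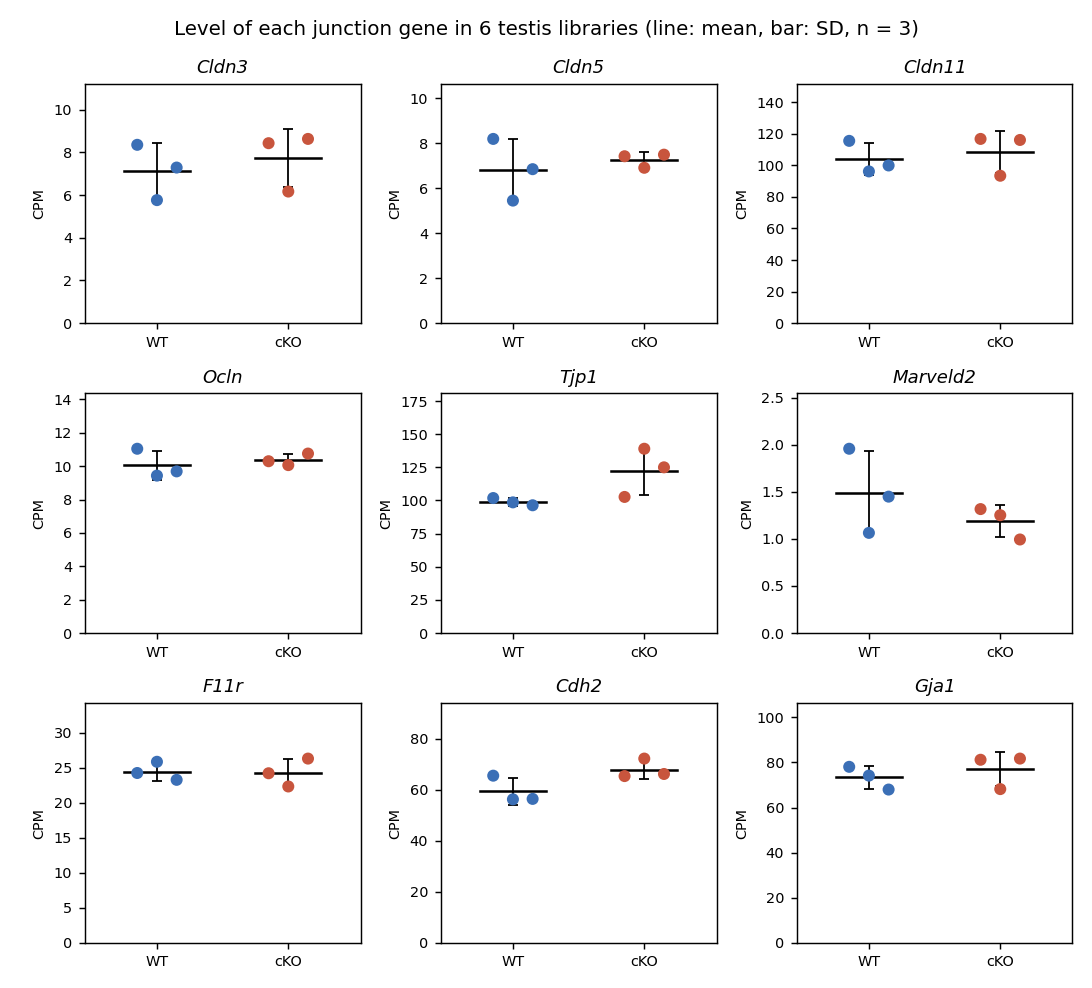
Level of each of the 9 genes in CPM in the 3 WT (blue) and 3 cKO (red) libraries, with the mean (line) and SD (bar). Only for Tjp1 do the cKO points, 103 to 139 CPM, all lie above the WT points.

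Of the 9 members 0 passed an edgeR adjusted p of 0.05, where 0.0183% of all genes tested did. At an unadjusted p under 0.05 there were 2, Tjp1 and Cdh2, both higher in cKO, against 13.9% of all genes. DESeq2 called 0 of them, against 1.64% of those it gave an adjusted p. The groups did not overlap in 1 member, against 18.9% of all genes. Without WT 1 and without cKO 2 they did not overlap in 4 members, against 37.5% and 26.2% of all genes. The log2 fold change was above 0 in 7 members (50.7% of all genes) and its median was 0.070, against 0.0031 over all genes. That median ran from 0.014 without WT 2 to 0.15 without WT 1 and was 0.11 after a correction for transcript length and GC content. The count without overlap is not above that of all genes, and the direction count is a description of 9 genes. For Cldn11, Ocln, F11r and Gja1 the intervals lay within 0.878 to 1.21, so a larger difference between these groups is outside the interval for those 4 genes. Those of Cldn3, Cldn5 and Marveld2 were wider.

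**Figure D4:**
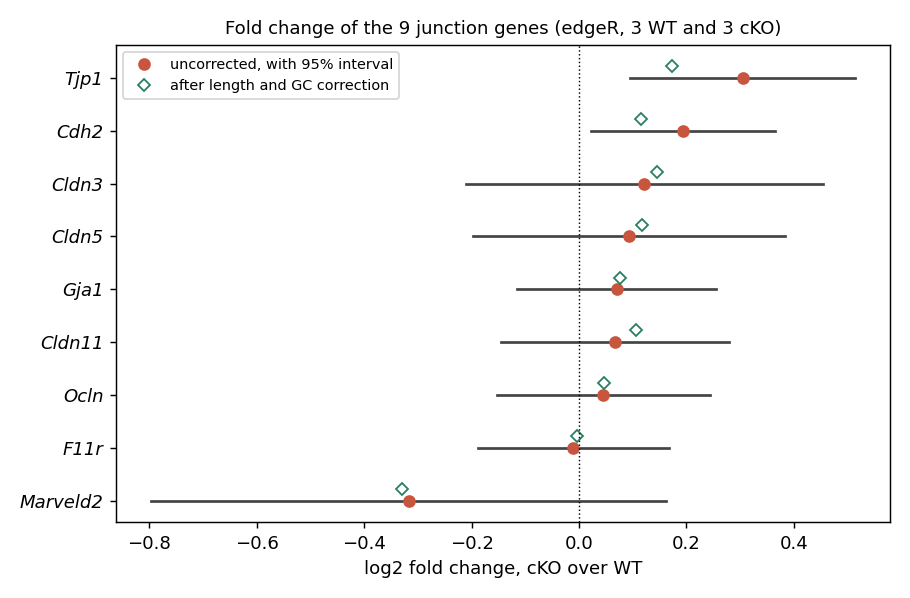
Log2 fold change of cKO over WT for each member, with its 95% interval (red point and bar), and the value after a correction for transcript length and GC content (green diamond). The intervals of Tjp1 and Cdh2 alone lie above 0, and their corrected values, 0.17 and 0.12, are nearer to 0.

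The libraries in which Tjp1 was high were also those in which long transcripts were high. Abundant genes (mean at or over 1 CPM) were split into 10 classes by transcript length. The class with the longest transcripts (6497 bases or more, 1680 genes) had a median deviation from the mean of the 6 libraries of 0.19 on the log2 scale in cKO 2 and 0.11 in cKO 3. In the other 4 libraries it was -0.091 to -0.065. The median log2 fold change went from -0.17 in the shortest class to 0.17 in the longest. Tjp1, whose longest transcript has 7049 bases, belongs to the longest class, and its deviations were 0.34 in cKO 2, 0.19 in cKO 3 and -0.18 to -0.093 elsewhere. Cdh2, in class 8 of 10, was at 0.19 in cKO 2, 0.062 in cKO 3, 0.047 in WT 1, 0.044 in cKO 1 and -0.17 in WT 2 and WT 3, where the median of its class was 0.046 in cKO 2 and 0.030 in cKO 3. Its cKO 3 value was thus close to those of WT 1 and cKO 1. A correction per library for transcript length and GC content was added once the data were known. With it the log2 fold change of Tjp1 was 0.17 (SE 0.066, edgeR adjusted p = 0.461) and that of Cdh2 0.12 (SE 0.067, edgeR adjusted p = 0.617). Those of Cldn11, Cldn3 and Cldn5 moved away from 0 instead, to 0.11, 0.14 and 0.12. The corrected Tjp1 level was 106, 102 and 101 CPM in WT and 106, 126 and 118 CPM in cKO libraries. The groups still did not overlap, with cKO 1 just above WT 1.

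Single libraries also moved Tjp1. Without cKO 1 its log2 fold change was 0.42 and it passed the threshold (edgeR adjusted p = 0.0117), in a comparison that called 2.82% of all genes. Without cKO 2 it was 0.20 (edgeR adjusted p = 0.584). It also passed with low counts left unfiltered (edgeR adjusted p = 0.0192), where 2.07% of all genes did.

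Cldn11, Cldn3, Gja1, Ocln and Cldn5 had another pattern in common, above their means in WT 1, cKO 1 and cKO 3 and below them in WT 2, WT 3 and cKO 2, which ran across the groups rather than between them. In cKO 2 the median deviation of length class 2 (Cldn3 and Cldn5) was -0.11 and that of class 3 (Cldn11) -0.072. In WT 2 these medians were 0.087 and 0.018. After the length and GC correction Cldn5 no longer had the pattern, with cKO 1 at 6.91 and cKO 2 at 7.48 CPM. Cldn11, Cldn3, Gja1 and Ocln kept it. The likeness of a pair was measured as the root mean square difference of their log2 CPM, each centred on its own mean, over the 6 libraries. By that measure Cldn11 and Gja1 were the closest pair of members (0.066). Ocln was at 0.085 from Gja1 and 0.088 from Cldn11, Cldn3 at 0.11 from Cldn11, and Cldn5 at 0.12 from Ocln. Tjp1 was nearest to Cdh2 (0.12), and Marveld2 lay at least 0.26 from every other member. Among 10045 genes whose mean reached 10 CPM, those nearest to Cldn11 outside the members included Gpr37, Slc7a4, Fndc5 and Vasn (0.028 to 0.032, against a median of 0.15).

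The mean log2 CPM of 15 Sertoli markers, led per length by Clu (331 CPM per kb) and Cst9 (157), followed that pattern: it was 5.52, 5.40 and 5.43 in WT and 5.55, 5.30 and 5.61 in cKO libraries. Their summed level was 1668 to 1901 CPM in WT and 1600 to 2028 CPM in cKO libraries. Single Sertoli markers did not all have the pattern. Clu had it, but Cst9 did not, at 105, 116 and 117 CPM in WT and 101, 89.7 and 119 CPM in cKO libraries. The pattern was not particular to Sertoli markers. The mean log2 CPM of 8 spermatogonia markers had it too, at 3.33, 3.12 and 3.21 in WT and 3.39, 3.22 and 3.27 in cKO libraries. Ratios to the spermatogonia markers were not computed. Set against the Sertoli mean in the same library, the level of Cldn11 varied less: the SD over 6 libraries was 0.058 on the log2 scale for the ratio and 0.15 for the level itself. For Gja1 the SDs were 0.055 and 0.12, and for Cldn3 0.15 and 0.23. The ratio varied more than the level for Tjp1 (SD 0.26 against 0.21), Cdh2 (0.18 against 0.14), Marveld2 (0.28 against 0.26) and, slightly, Ocln (0.087 against 0.083). For F11r the SDs were 0.086 and 0.088, and for Cldn5 0.16 and 0.19. Neither the members nor the Sertoli markers were corrected for transcript length in these ratios, and how far the ratios follow it was not tested. The log2 ratio of Cldn11 to the Sertoli mean was 1.25 ± 0.080 (SD, n = 3) in WT and 1.27 ± 0.039 (SD, n = 3) in cKO libraries. In 0 of the 9 members did the groups separate in this ratio. The share over all genes was not computed for the ratio, so that count cannot be set beside one. Tjp1 lost its separation because cKO 1, at 1.14, fell below the WT libraries (1.16 to 1.23), while cKO 2 was at 1.82.

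**Figure D5:**
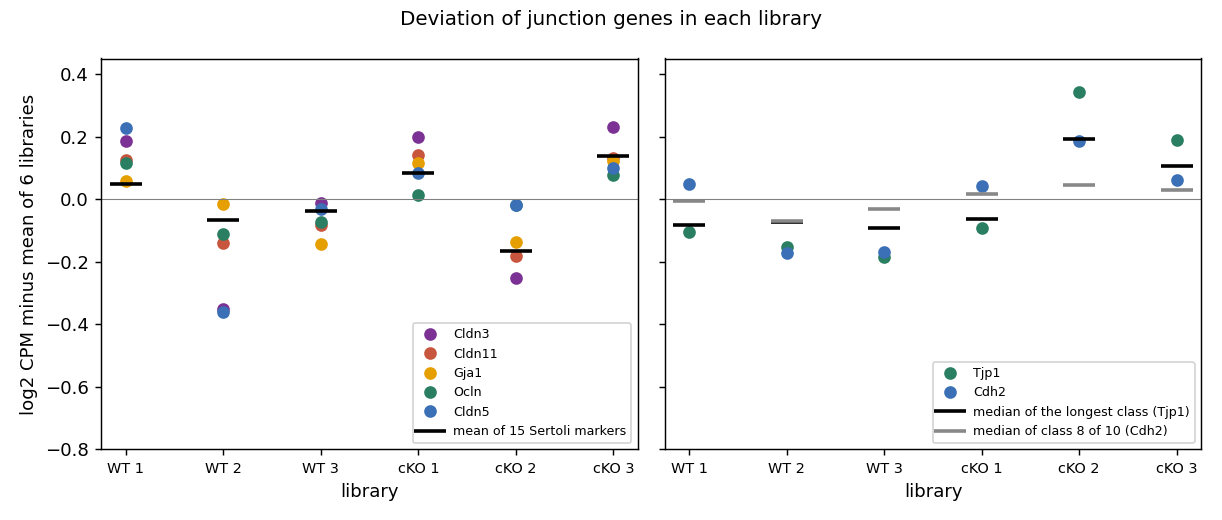
Deviation of log2 CPM from the mean of the 6 libraries, for Cldn3, Cldn11, Gja1, Ocln and Cldn5 with the mean of 15 Sertoli markers (left) and for Tjp1 and Cdh2 with the medians of the transcript length classes they belong to (right). On the left cKO 2 is below 0 and cKO 1 and cKO 3 are above; on the right Tjp1 reaches 0.34 in cKO 2.

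The other genes of the barrier were described from lists of junction components and regulators. Of 93 tested genes in 5 lists, 0 passed over all genes with edgeR (0.0183% of all genes). At an unadjusted p under 0.05 there were 21, against 13.9% of all genes, and 20 of them were higher in cKO. DESeq2 called 3, against 1.64% of the genes it gave an adjusted p, each higher, with Itga6 and Eps8 among them. Of the 93, 68 had a log2 fold change above 0 (73.1%, against 50.7% of all genes) and the median was 0.083. After the length and GC correction 58 were above 0, against 51.6% of all genes, and the median was 0.032. Their groups did not overlap in 25 genes (26.9%, against 18.9% of all genes), and after the length and GC correction in 14 (15.1%, against 14.4%).

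Among 32 other tight junction genes the median log2 fold change was 0.059, with 21 above 0 (65.6%, against 50.7% of all genes). After that correction it was 0.018, with 17 above 0 (53.1%, against 51.6%). Among those with at least 1 CPM the highest was Mpdz (0.37, SE 0.14, edgeR adjusted p = 0.306), a multi-PDZ scaffold, at 6.33 ± 0.156 CPM (SD, n = 3) in WT and 8.21 ± 1.67 CPM (SD, n = 3) in cKO libraries, with overlapping groups. In the same set the lowest were Cldn13 (-0.45, SE 0.14, edgeR adjusted p = 0.288) and the polarity scaffold Patj (-0.073, SE 0.13).

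The adherens junction and ectoplasmic specialisation list had 22 of 27 genes above 0 (81.5%, against 50.7% of all genes). Its median was 0.15, or 0.051 after the length and GC correction. Groups did not overlap in 12 of the 27 (44.4%, against 18.9% of all genes). After that correction they did not overlap in 7 (25.9%, against 14.4%). The median of the longest transcript was 4384 bases in this list and 2676 in all genes tested. Eps8, an actin bundling protein of the specialisation, was at 24.0, 20.3 and 18.3 CPM in WT and 26.4, 26.9 and 31.98 CPM in cKO libraries (log2 fold change 0.45, SE 0.11, edgeR adjusted p = 0.276). Itga6, an integrin chain, was at 20.7, 18.4 and 17.95 CPM in WT and 24.5, 23.8 and 28.0 CPM in cKO libraries (log2 fold change 0.42, SE 0.088, edgeR adjusted p = 0.276). In both genes the 3 cKO libraries lay above the 3 WT libraries, cKO 1 included. The lowest with at least 1 CPM were the integrin-linked kinase gene Ilk (-0.13) and Nectin3 (-0.076).

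In the 3 shorter lists 0 genes passed with edgeR or DESeq2, and 1 desmosome gene, 0 other gap junction genes and 3 regulators had an unadjusted p under 0.05, where 13.9% of all genes did. The desmosome gene was Dsg2 (0.90, SE 0.35, edgeR adjusted p = 0.313), with a mean of only 0.33 CPM and overlapping groups. Desmosome genes ran from Dsp (-0.18) and Jup (0.0065) to Pkp4 (0.11) and Pkp2 (0.20) among those with at least 1 CPM. Other gap junction genes with at least 1 CPM ran from Gja6 (-0.11) and Gjd3 (-0.021) to Panx2 (0.25). Of 13 barrier regulators, 11 were above 0 (84.6%, against 50.7% of all genes). They ran from Rhoa (-0.052) and Cdc42 (-0.038) to Mtor (0.25) and Rictor (0.27). Median log2 fold changes of the lists were 0.057, 0.037 and 0.092 in that order. After the length and GC correction they were -0.027, 0.028 and 0.030, with 8 regulators above 0 (61.5%, against 51.6% of all genes).

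Markers of other cells of the testis, given for comparison, had median log2 fold changes of 0.13 for endothelium, -0.14 for Leydig cells (led by Cyp17a1 and Insl3), -0.041 for peritubular myoid cells (Actg2 and Acta2), -0.24 for macrophages (C1qb and Fcgr3), 0.10 for spermatogonia (Uchl1 and Dmrt1), -0.0058 for spermatocytes (Sycp3 and Piwil1), -0.16 for spermatids and 0.065 for Sertoli cells. These medians were not corrected for transcript length, and how far they follow it was not tested. The longest transcripts of Prm1 and Tnp2 have 469 and 554 bases, and those of C1qb and Fcgr3 1088 and 1347. Of 8 macrophage markers 1 was above 0 (12.5%, against 50.7% of all genes). It was Mrc1 (0.25), whose longest transcript has 5374 bases and whose groups did not overlap. Csf1r and Adgre1, with longest transcripts of 4701 and 3238 bases, were at -0.055 and -0.24. The spermatid marker Prm2, with 674 bases, was at 0.0040.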

How the data were processed

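The deposited values are raw read counts per gene, 1 table per library. The submitters' processing notes name STAR, HTSeq and DESeq2 and the build mm10, without roles or versions. The layout is that of STAR gene counts of single-end 75 bp reads. The annotation release and read filters are not given in the sources used here. The count column of the strand opposite to the read, with 96.0% to 96.2% of stranded reads, was used. Summary lines (14.8% to 16.7% of reads) were left out. Gene names, exons and lengths came from GENCODE M21 (GRCm38), which matched 52093 of 53700 identifiers, and upstream sequences from RefSeq (GRCm38.p6).

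Counts were tested with edgeR 4.0.16 in R 4.3.3 (TMM scaling, filterByExpr with minimum count 10, quasi-likelihood F test, Benjamini-Hochberg over 21902 genes, threshold 0.05). Intervals are 95% limits from the standard error implied by the F statistic. The procedure was also run on counts simulated without a transcript length shift between libraries, so that run cannot show how it behaves under such a shift. Alternatives were RLE scaling, library totals alone, no filter, at least 10 reads in every library, unstranded counts, robust quasi-likelihood, a replicate block, a threshold of 0.1, DESeq2 1.42.0 on the same genes and each library left out. The length and GC correction (loess, span 0.3) was added after the data had been seen. Ratios to Sertoli markers used log2(CPM + 0.5). The members and lists were chosen with earlier results of these data known. Genes outside the members are named by rule: the 2 highest and 2 lowest log2 fold changes of a list (mean of at least 1 CPM), the 3 highest of a family, the 2 most abundant markers per length, and the 5 genes nearest to Cldn11. Jam2, Jam3, Cldn12, Lcn8, Aard, Mrc1, Csf1r, Adgre1, Prm2, Dsg2 and Wbscr25 were named after their values were seen. Some genes that the rule selects are not reported here.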

Additional observations from a re-analysis of the deposited data

How the results depend on the processing

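Marveld2 had the fewest reads, 58 to 115 a library. Of the 9 members 0 were called in the full comparison and under RLE scaling, library totals alone, at least 10 reads in every library, unstranded counts, robust quasi-likelihood, a threshold of 0.1, DESeq2 (which leaves Marveld2 without an adjusted p) and the length and GC correction. Without a filter on low counts 1 was called (Tjp1), and from 0 to 1 with a library left out (Tjp1 without cKO 1). Members without overlap numbered 1 (18.9% of all genes), but 0 with library totals alone, and 1 to 4 with a library left out. The count was 4 without WT 1 and without cKO 2, where 37.5% and 26.2% of all genes did not overlap. With a library left out the log2 fold change ran from -0.012 to 0.26 for Cldn3, -0.047 to 0.25 for Cldn5, -0.071 to 0.047 for F11r, 0.20 to 0.42 for Tjp1, -0.51 to -0.073 for Marveld2, 0.012 to 0.17 for Cldn11, 0.0084 to 0.15 for Gja1, 0.00078 to 0.12 for Ocln and 0.15 to 0.27 for Cdh2; Cldn3 and Cldn5 turned without WT 2, and F11r without WT 2 and without cKO 2. The cause was not tested. Leaving out Clu and Aard from the Sertoli markers left 0 members separated in the ratio, for which no share over all genes was computed. Over all genes, 4 were called, against 757 without a filter, 2 with unstranded counts, 199 with DESeq2 and 1 to 628 with a library left out.

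Across genes, the deviations of WT 1, 2 and 3 and of the cKO library of the same number correlated at 0.35, 0.26 and -0.046. The numbers were not treated as pairs because the labels state no pairing. For numbers 1 and 2 these were the highest correlations of all cross-group pairs. The crossed ones were -0.34 (WT 2 with cKO 1) and -0.30 (WT 1 with cKO 2). Whether same-numbered libraries share a batch was not tested. WT 3 and cKO 3 did not correlate best with each other. With a replicate block 49 genes and 0 members were called, and Tjp1 had an edgeR adjusted p of 0.103.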
